A study of Mus musculus with 20 samples.

Results

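Genes that make sterols and fatty acids were followed in RNA-seq libraries of macrophages grown from mouse bone marrow (BMDM). A list of 37 genes was looked up by symbol in the table of 14456 genes, whose Ensembl identifiers were named with GENCODE M21, and all 37 were found. They comprise 5 regulators (Srebf1, Srebf2, Scap, Insig1 and Insig2), 19 genes of the sterol branch and 13 genes of the fatty acid branch, in which the long-chain acyl-CoA synthetases Acsl1, Acsl3 and Acsl4 were included. No measured value enters the choice by symbol, but the list was drawn up with earlier results of these data known.

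BMDM were grown from marrow of wild type male C57BL/6 mice, whose age the study's methods give as 8 weeks in one place and as up to 12 weeks in another, with the macrophage growth factor M-CSF for 6 days, so that all groups share this background. High glucose BMDM were kept in 25 mM glucose for 24 h, and normal glucose BMDM in 5.5 mM glucose with 19.5 mM of mannitol, a sugar alcohol that equalizes osmolarity (n = 4 libraries each). In the other set of libraries, naive BMDM received the saline PBS or exosomes, named BMDM-NG-exo and BMDM-HG-exo, over 24 h (n = 4 each), where exosomes are small vesicles purified from the medium of BMDM kept in normal (NG) or high (HG) glucose. The labels do not give the glucose in the medium of the recipient cells, and each exosome library came from its own exosome preparation. For the glucose libraries nothing says that they came from separate cultures or animals, so that their p-values measure the spread between these libraries.

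Cholesterol is made from acetyl-CoA through mevalonate, squalene and lanosterol, and fatty acids are made from the same acetyl-CoA through malonyl-CoA and are then elongated, desaturated and activated. The transcription factors SREBP-2 (gene Srebf2) and SREBP-1 (gene Srebf1) drive the sterol and the fatty acid genes, respectively, with some overlap. SCAP carries the SREBP proteins to the Golgi, where they are cut and released, and the INSIG proteins hold them back in the endoplasmic reticulum when sterols are plentiful. In macrophages these pathways are known for their ties to membrane make-up, lipid loading and inflammatory activation.

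The libraries held between 34016445 and 56310712 recovered reads (median 43311931). All 8 macrophage markers looked up were listed, and their summed normalized count lay between 632264 and 707940 in normal glucose and between 807259 and 876678 in high glucose, without overlap. In PBS the sum lay between 794308 and 839124, in BMDM-NG-exo between 719778 and 774231 and in BMDM-HG-exo between 736292 and 759010. Lyz2 alone made up most of the sum, with a mean of 480700 in normal glucose and 642800 in high glucose. Csf1r, Lyz2 and Adgre1 rose in high glucose, by log2 fold changes of 0.35, 0.42 and 0.10, while Mrc1, Mertk and Cd68 fell, by 0.47, 0.40 and 0.15 on the log2 scale, and Fcgr1 and Itgam did not pass. Of the markers of other cells, 5 of 9 neutrophil genes were listed, with a summed normalized count between 165 and 378 in a library, as were 3 of 5 genes of fibroblasts and stroma (between 107 and 349) and 1 of 7 lymphocyte genes (Cd4), while no gene of the dendritic cell, mast cell and basophil, erythroid and adipocyte lists was listed. The part of these differences in the results below was not tested. In bulk libraries, a change in the share of cells of a type and a change of RNA per cell cannot be told apart.

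Per kb of exon, which allows levels of different genes to be compared, the fatty acid branch held both the highest and the lowest members. Acly, the ATP citrate lyase that makes cytosolic acetyl-CoA for both branches, led with a mean of 875 normalized counts per kb over the 20 libraries. The long-chain acyl-CoA synthetase Acsl4 (650 per kb), the elongase Elovl1 (538 per kb) and the delta-5 desaturase Fads1 (533 per kb) followed. Scd1, a stearoyl-CoA desaturase, was lowest at 3.20 per kb, whereas its paralog Scd2 was at 39.6 per kb. Regulators ranged from 164 per kb (Insig2) to 413 per kb (Srebf2).

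In the sterol branch, the sterol isomerase gene Ebp (342 per kb) and the HMG-CoA synthase gene Hmgcs1 (290 per kb) were highest. The farnesyl diphosphate synthase gene Fdps was lowest (12.9 per kb). Levels were divided by the merged length of all annotated exons, which can exceed a transcript. For Fdps it is 4208 bases, beside 1382 in its longest coding transcript, so that such ranks depend on the length used. The median member was at 86.5 per kb in the sterol branch, 154 per kb in the fatty acid branch and 147 per kb among all listed genes. Depth limited the low members. Scd1 had between 3 and 35 reads in a library, and the typical coefficient of variation within a group was 12.5% for a sterol member, 6.29% for a fatty acid member and 8.96% for all tested genes. Some levels are uncertain, since reads of near-identical copies could be split between genes. At 95% identity or more, 76.9% of the Fdps transcript, 65.6% of the Acat2 transcript, 64.3% of the Acaca transcript and 33.8% of the Fdft1 transcript matched other annotated genes, of which the largest matches were processed pseudogenes or, for Acat2, the listed gene Acat3.

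**Figure D1:**
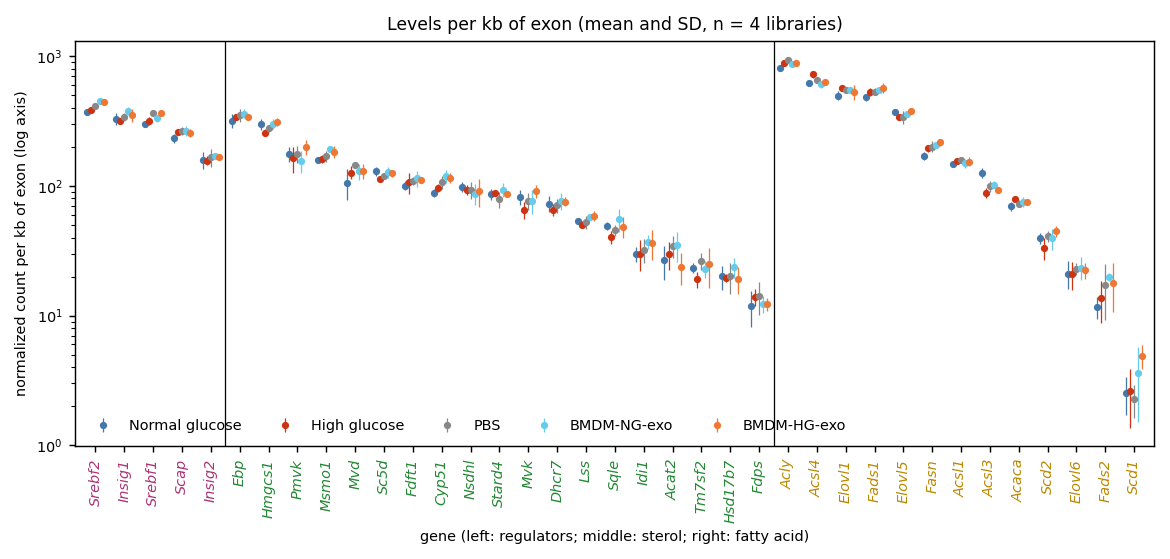
Mean normalized count per kb of exon (log axis, bars SD, n = 4 libraries) of each of the 37 genes in the 5 groups, ordered within the regulators, the sterol branch and the fatty acid branch. Acly is highest at a mean of 875 per kb over the 20 libraries and Scd1 lowest at 3.20 per kb, and the 5 groups of a gene lie close to each other beside the distance between genes.

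High glucose was compared with normal glucose, whose medium held mannitol in place of the added glucose, to ask how the macrophages differ between these media. Of the 37 genes, 5 had an adjusted p-value under 0.05, where 13.3% of the 14425 genes tested passed (limma, p-values adjusted by Benjamini-Hochberg across all of them). Calls of higher genes made up 7.74% and of lower genes 5.53% of all genes tested. In the fatty acid branch 3 of 13 genes rose (Acsl4, Fasn and Elovl1) and 1 fell (Acsl3), while in the sterol branch 1 of 19 fell (Hmgcs1) and none of the 5 regulators passed. The median log2 fold change was 0.12 in the fatty acid branch, -0.02 in the sterol branch and 0.06 for the regulators, beside a median of -0.0031 over all genes tested. At an unadjusted p under 0.05, 12 of the 37 genes were found, beside 25.4% of all genes tested. The groups did not overlap for 8 of the 37 genes, and for 16.3% of all genes tested.

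The regulators stayed within the spread between libraries or close to it. Srebf1 had 1740, 1644, 1731 and 1600 normalized counts in the 4 normal glucose libraries and 1878, 1888, 1626 and 1747 in the 4 high glucose libraries. Its groups overlapped, and the log2 fold change was 0.09 (95% interval -0.03 to 0.21). Srebf2 had 2742, 2511, 2693 and 2644 normalized counts in normal glucose, against 2845, 2654, 2783 and 2787 in high glucose, which again overlapped (log2 fold change 0.06, 95% interval -0.03 to 0.16). Insig1, itself a classical SREBP target, had 907, 1058, 957 and 1145 normalized counts in normal glucose and between 962 and 984 in high glucose. The high glucose libraries thus lay inside the range of normal glucose, and the log2 fold change was -0.06 (95% interval -0.21 to 0.09). Scap was higher in each high glucose library (1899 to 1979) than in each normal glucose library (1518 to 1867), but its log2 fold change of 0.16 did not pass (limma adjusted p = 0.0723).

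Hmgcs1, which makes HMG-CoA at the entry of the mevalonate pathway, was the sterol gene that passed. It had 1252, 1545, 1305 and 1370 normalized counts in normal glucose, against 1113, 1165, 1270 and 1193 in high glucose. High glucose libraries were thus the lower ones, with an overlap of 1 high glucose library at 1270 and 1 normal glucose library at 1252. The log2 fold change was -0.20 (standard error, SE, 0.0678, limma adjusted p = 0.0399), or 1368 ± 127 against 1185 ± 65.5 normalized counts (SD, n = 4). Leaving out 1 library, the call was kept in 3 of 8 fits, with adjusted p-values up to 0.186 (limma).

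The sterol gene with the next smallest p was Sc5d, a sterol desaturase late in the pathway. It had 571, 683, 619 and 662 normalized counts in normal glucose, against 533, 552, 537 and 567 in high glucose, so that its groups did not overlap. Its log2 fold change was -0.21 (95% interval -0.39 to -0.03, limma adjusted p = 0.117). Groups of the squalene epoxidase gene Sqle and of the sterol reductase gene Tm7sf2 also did not overlap and were lower in high glucose, by log2 fold changes of -0.28 and -0.29 that did not pass. On the other side, the mevalonate decarboxylase gene Mvd had a log2 fold change of 0.30, with an interval from -0.05 to 0.64. Tm7sf2 shares 532 exon bases, 12.1% of its own, with the listed gene Vps51 on the same strand. Vps51 had a mean of 1265 normalized counts in normal glucose and 1238 in high glucose. The part of this overlap in the Tm7sf2 values was not tested. In all, 11 of the 19 sterol genes lay below 0 and 8 above, and the fold changes ran from -0.34 (Mvk) to 0.30 (Mvd), so that the branch did not move one way.

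The clearest difference in the list was between members of the acyl-CoA synthetase family, enzymes that couple long-chain fatty acids to coenzyme A. Acsl3 had 494, 589, 593 and 518 normalized counts in normal glucose, against 365, 426, 349 and 397 in high glucose. Every high glucose library lay below every normal glucose library, and the log2 fold change was -0.51 (SE 0.102, limma adjusted p = 0.000418). Acsl4, which prefers arachidonic acid and related polyunsaturated fatty acids, had 3407, 3457, 3380 and 3308 normalized counts in normal glucose, against 3658, 3866, 3992 and 4223 in high glucose. Every high glucose library was above every normal glucose library, with a log2 fold change of 0.21 (SE 0.0464, limma adjusted p = 0.00119). Acsl1 had a log2 fold change of 0.08 (95% interval -0.04 to 0.19). Acsl3 and Acsl4 passed in all 8 fits with 1 library omitted.

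The ratio of Acsl4 to Acsl3, formed after the values were seen and given without a test, was 6.90, 5.87, 5.70 and 6.39 in the normal glucose libraries and 10, 9.08, 11.5 and 10.6 in those of high glucose. It lay between 7.48 and 9.0 in PBS, between 6.63 and 8.21 in BMDM-NG-exo and between 8.06 and 8.78 in BMDM-HG-exo. Every library of these 3 groups thus lay below every high glucose library. Acsl3 shares 244 exon bases, 5.6% of its own, with the listed gene Utp14b on the same strand. Utp14b had 612 ± 27.8 normalized counts in normal glucose and 497 ± 21.1 in high glucose (SD, n = 4), a log2 fold change of -0.30 (limma adjusted p = 0.0187), and the part of this overlap in the Acsl3 difference was not tested.

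Fasn, the fatty acid synthase that makes palmitate, had 1975, 1681, 1971 and 1813 normalized counts in normal glucose, against 2031, 2032, 2299 and 2207 in high glucose. Its groups did not overlap, and it rose by a log2 fold change of 0.20 (SE 0.0588, limma adjusted p = 0.0157). Elovl1, which elongates very-long-chain fatty acids, had 1508, 1335, 1240 and 1343 normalized counts in normal glucose, against 1520, 1575, 1626 and 1489 in high glucose, where 1 high glucose library lay below the highest normal glucose library. It rose by a log2 fold change of 0.20 (limma adjusted p = 0.0311).

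Further fatty acid genes did not pass. Acly was at 4066 to 4488 normalized counts in normal glucose and at 4540 to 4803 in high glucose, without overlap (log2 fold change 0.12, limma adjusted p = 0.0549). Acaca, the acetyl-CoA carboxylase that makes malonyl-CoA, had a log2 fold change of 0.17 (limma adjusted p = 0.0750). Fads1 had one of 0.14 (limma adjusted p = 0.0953). By contrast, Elovl5 (-0.11) and Scd2 (-0.26) lay below 0 without passing.

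**Figure D2:**
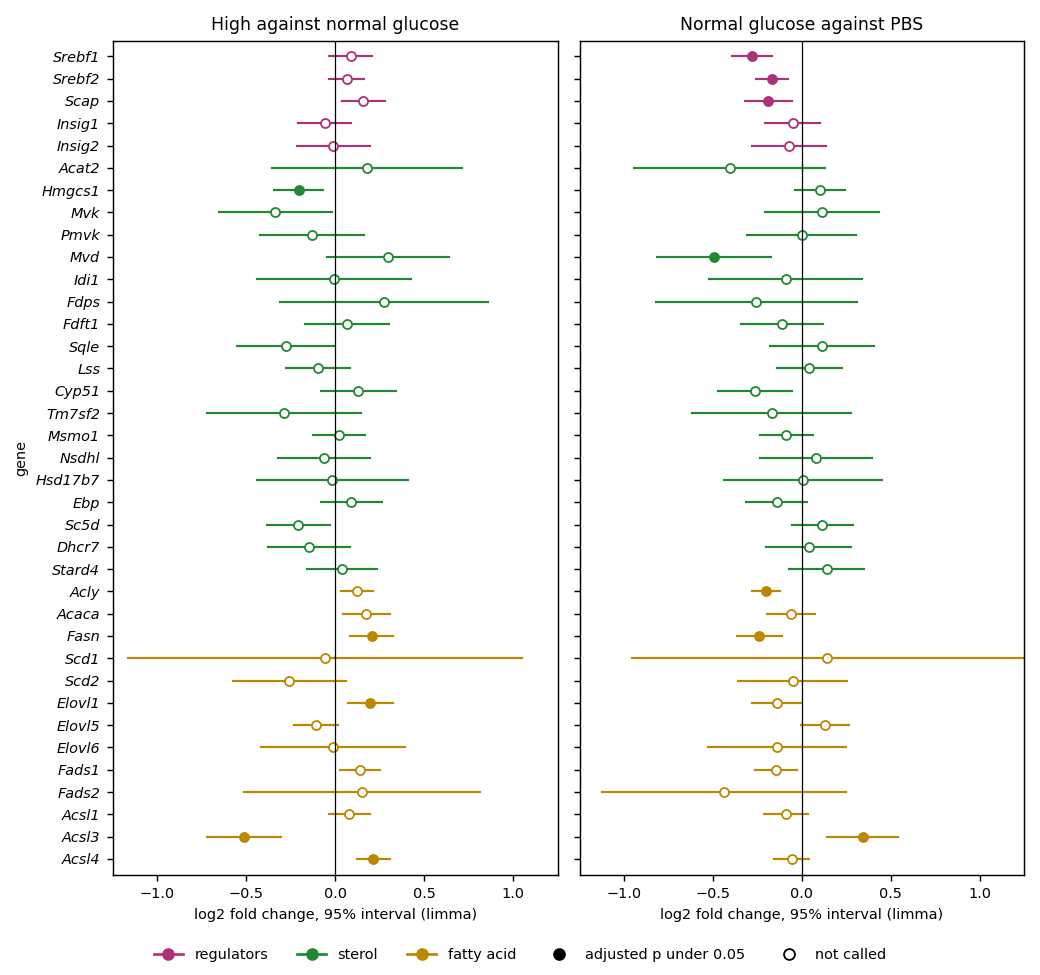
Log2 fold change of each gene with its 95% interval (limma) for high against normal glucose (left, 8 libraries) and normal glucose against PBS (right, 20 libraries); filled points have an adjusted p-value under 0.05. On the left, Acsl3 (-0.51) and Hmgcs1 (-0.20) lie below 0 and Acsl4 (0.21), Fasn (0.20) and Elovl1 (0.20) above it; on the right, 6 of the 7 filled points lie below 0.

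Fasn and Elovl1 kept their calls in 5 and 3 of the 8 fits that left out 1 library, and both lost them under quantile normalization. With a variance that did not depend on expression Acsl3 alone passed, beside 4.53% of all genes tested. In the fits that left out 1 library between 3 and 7 genes did, with 3 each without normal glucose 6, high glucose 2, high glucose 4 or high glucose 6.

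Neighbouring genes of the fatty acid pathway and of the response to sterols were also read from the same fit. Of 18 further fatty acid pathway genes tested, 2 rose and 2 fell: the acyl-CoA synthetase gene Acsl5 rose by 0.21 and the malic enzyme gene Me1, a source of NADPH, by 0.56, while the dehydratase gene Hacd4 fell by 0.29 and the phosphatidate phosphatase gene Lpin1 fell by 0.30 on the log2 scale. Of 10 liver X receptor genes and targets, which answer to oxysterols and govern cholesterol efflux, 2 rose (Abcg1, 0.13; Mylip, 0.15) and 2 fell: the efflux transporter gene Abca1 by 0.17 and the phospholipid transfer protein gene Pltp by 0.33 on the log2 scale. These are 4 of 18 and 4 of 10 genes, beside 13.3% of all genes tested.

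Promoters are shown for 5 of the 10 genes that passed in high against normal glucose or in normal glucose against PBS, so that motifs near their starts can be read beside the values. They were picked after the values were seen, with Hmgcs1 and Mvd from the sterol branch, of which Mvd passed only against PBS, and Fasn, Acsl3 and Acsl4 from the fatty acid branch. Promoter windows of 250 bases before to 50 bases after the start were found in a RefSeq table of build GRCm38.p6 for 30 of the 37 genes, some with more than 1 window. Motifs were searched on both strands: the sterol regulatory element TCACNCCAC, to which SREBP binds, the CCAAT box CCAAT, bound by NF-Y, the E-box CACGTG, and the GC box GGGCGG, bound by Sp factors. The 250 bases before the start are printed 5′ to 3′ on the strand of the gene, with the matches to these motifs, or to their complements, in capitals. Hmgcs1 is on the plus strand at chr13:119690101-119690350, Mvd on the minus strand at chr8:122443423-122443672, Fasn on the minus strand at chr11:120824548-120824797, Acsl3 on the plus strand at chr1:78657575-78657824 and Acsl4 on the minus strand at chrX:142390536-142390785.
Hmgcs1: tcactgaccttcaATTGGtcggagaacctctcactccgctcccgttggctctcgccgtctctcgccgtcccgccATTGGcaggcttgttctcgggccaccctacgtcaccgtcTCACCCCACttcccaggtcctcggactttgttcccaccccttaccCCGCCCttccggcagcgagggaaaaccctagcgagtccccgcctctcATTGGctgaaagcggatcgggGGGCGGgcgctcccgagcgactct
Mvd: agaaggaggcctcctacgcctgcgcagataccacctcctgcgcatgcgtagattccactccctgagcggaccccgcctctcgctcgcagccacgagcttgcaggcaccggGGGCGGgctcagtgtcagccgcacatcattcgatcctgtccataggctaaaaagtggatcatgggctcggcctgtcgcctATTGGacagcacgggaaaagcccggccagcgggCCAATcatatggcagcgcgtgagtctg
Fasn: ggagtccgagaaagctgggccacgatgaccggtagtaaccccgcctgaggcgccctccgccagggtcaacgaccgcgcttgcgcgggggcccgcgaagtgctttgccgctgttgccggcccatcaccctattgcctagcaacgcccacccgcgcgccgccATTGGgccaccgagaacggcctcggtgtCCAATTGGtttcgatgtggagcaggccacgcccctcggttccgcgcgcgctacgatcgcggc
Acsl3: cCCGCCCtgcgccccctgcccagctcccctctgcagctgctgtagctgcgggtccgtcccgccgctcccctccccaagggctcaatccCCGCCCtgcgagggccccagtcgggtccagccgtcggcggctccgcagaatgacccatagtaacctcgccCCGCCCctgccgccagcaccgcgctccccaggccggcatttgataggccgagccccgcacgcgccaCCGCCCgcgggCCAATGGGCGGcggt
Acsl4: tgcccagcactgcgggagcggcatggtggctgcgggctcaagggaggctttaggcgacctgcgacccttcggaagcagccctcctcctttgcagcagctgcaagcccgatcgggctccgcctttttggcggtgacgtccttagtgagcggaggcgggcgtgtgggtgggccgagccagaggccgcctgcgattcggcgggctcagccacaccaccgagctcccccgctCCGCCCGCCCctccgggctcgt

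Hmgcs1 held the sterol regulatory element 137 bases before its start, on the strand shown, together with 4 CCAAT boxes in the whole window. Among the genes with a window, only Hmgcs1 and Acsl1 held that element (2 of 30), beside 1.40% of 9742 listed genes with a window. The CCAAT box was in the windows of 14 of 15 sterol genes, 6 of 10 fatty acid genes and 4 of 5 regulators, beside 42.9% of listed genes. Of the genes shown, Mvd held 2 CCAAT boxes and Fasn 3, of which 2 overlap each other on opposite strands, Acsl3 held 1 that adjoins a GC box, and Acsl4 held GC boxes only. The GC box was in 14 of 15 sterol genes, 6 of 10 fatty acid genes and 5 of 5 regulators, beside 67.9% of listed genes, and the E-box in 3, 1 and 2 genes, beside 11.9%. A match of letters is not a binding site, a window without an exact match may still hold one, and binding was not measured.

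The exosome libraries were compared to ask whether vesicles from glucose-treated macrophages change naive macrophages. With limma, none of the 37 genes reached both an adjusted p-value under 0.05 and a log2 fold change of 0.15 or more in either direction in any of the 4 comparisons, nor with edgeR or DESeq2 on the recovered reads. Over all genes tested, the percentage that passed was 0.0139% for BMDM-HG-exo against BMDM-NG-exo, 3% for BMDM-NG-exo against PBS, 4.84% for BMDM-HG-exo against PBS and 0.201% for BMDM-HG-exo against PBS and BMDM-NG-exo combined. At an unadjusted p under 0.05, 3, 5, 4 and 2 of the 37 genes were found in these comparisons, beside 6.54%, 13.5%, 16.9% and 10.5% of all genes tested. The comparisons share libraries and are therefore not independent of each other.

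In the sterol branch, where no gene passed, the median log2 fold change of the 19 genes against PBS was 0.08 in BMDM-NG-exo and 0.07 in BMDM-HG-exo, with 13 and 12 genes above 0, 6 and 7 below, while the median over all genes tested was 0.00 in each. Both groups were set against the same 4 PBS libraries. For BMDM-HG-exo against BMDM-NG-exo the median of the sterol genes was -0.02 and that of the fatty acid genes 0.03. The 95% interval lay within 0.5 on either side of 0 on the log2 scale for 28 of the 37 genes in this last comparison, so that larger differences are bounded for these genes. For the rest the interval reached past 0.5 on the log2 scale in at least 1 direction. Among them are Scd1, Acat2 and Fads2, which have few reads, and Pmvk, whose interval ran from 0.09 to 0.68.

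Srebf2 was the regulator that stood apart from PBS in both groups. It had 2988, 2906, 2936 and 3060 normalized counts in PBS, 3328, 3139, 3217 and 3204 in BMDM-NG-exo and 3387, 3158, 3178 and 3124 in BMDM-HG-exo. All exosome libraries lay above all PBS libraries, with log2 fold changes of 0.12 (limma adjusted p = 0.211) and 0.11 (limma adjusted p = 0.183), neither of which passed. Groups did not overlap for 3 of the 37 genes between BMDM-NG-exo and PBS for 2 between BMDM-HG-exo and PBS and for 1 of them in BMDM-HG-exo against BMDM-NG-exo, beside 8.27%, 10% and 3.86% of all genes tested. Srebf1 had 2039, 2017, 2030 and 2062 normalized counts in PBS, 1918, 1835, 1728 and 1986 in BMDM-NG-exo and 2113, 2146, 1965 and 2011 in BMDM-HG-exo. The BMDM-NG-exo libraries were all below PBS, at a log2 fold change of -0.13 (limma adjusted p = 0.272), and BMDM-HG-exo was at 0.14 against BMDM-NG-exo (limma adjusted p = 0.630). Insig1 had log2 fold changes of 0.15 in BMDM-NG-exo and 0.04 in BMDM-HG-exo against PBS, with intervals that include 0.

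The sterol genes with the smallest p-values differed from one comparison to the next. Msmo1, a methylsterol oxidase, had between 933 and 1164 normalized counts in PBS, between 1148 and 1215 in BMDM-NG-exo and between 974 and 1277 in BMDM-HG-exo, with a log2 fold change of 0.18 for BMDM-NG-exo against PBS (95% interval 0.03 to 0.34). Stard4, which moves cholesterol between membranes, had a log2 fold change of 0.25 there (95% interval 0.03 to 0.47). Hmgcs1 had 1183, 1281, 1385 and 1249 normalized counts in PBS and 1367, 1504, 1326 and 1543 in BMDM-HG-exo, a log2 fold change of 0.17 (limma adjusted p = 0.180). Pmvk, the phosphomevalonate kinase gene, had 315, 199, 291 and 256 normalized counts in BMDM-NG-exo and 374, 292, 321 and 389 in BMDM-HG-exo, which overlapped (log2 fold change 0.39, limma adjusted p = 0.621). Acat2, an acetoacetyl-CoA thiolase gene, had 113, 77.7, 62.5 and 104 normalized counts in BMDM-NG-exo and 39.2, 57.0, 77.6 and 67.8 in BMDM-HG-exo, also with an overlap. Its log2 fold change of -0.56 (limma adjusted p = 0.741) rests on few reads, between 39 and 142 in a library, and on a transcript that is largely shared with Acat3.

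In the fatty acid branch, 2 genes had an unadjusted p under 0.05 in an exosome comparison, namely Elovl5, a polyunsaturated fatty acid elongase gene, and Acly. Elovl5 had 1249, 1241, 995 and 1294 normalized counts in PBS and 1314, 1430, 1350 and 1261 in BMDM-HG-exo, a log2 fold change of 0.17 (limma adjusted p = 0.207) in which 1 PBS library was far below the rest. Acly was at 4761 to 4990 normalized counts in PBS and at 4540 to 4749 in BMDM-NG-exo, without overlap, for a log2 fold change of -0.08 (limma adjusted p = 0.359). Scd1 had 10.1, 12.2, 7.33 and 14.9 normalized counts in PBS and 29.2, 23.0, 26.5 and 17.4 in BMDM-HG-exo. These groups did not overlap, and the log2 fold change of 1.06 (95% interval -0.06 to 2.17) understates changes at such low counts because of the added 1. Acsl3, lower in high glucose, was at 423, 486, 435 and 441 normalized counts in BMDM-NG-exo and at 395, 394, 416 and 413 in BMDM-HG-exo (log2 fold change -0.14, limma adjusted p = 0.913), without overlap. Scd2 had 226, 223, 252 and 160 normalized counts in BMDM-NG-exo and 232, 221, 271 and 256 in BMDM-HG-exo (log2 fold change 0.20, 95% interval -0.11 to 0.51), and Acsl4 had 3418, 3397, 3577 and 3719 in PBS and 3477, 3220, 3043 and 3459 in BMDM-NG-exo (log2 fold change -0.10, 95% interval -0.20 to 0.0041). Against the combined controls, the fatty acid genes with the smallest p were Elovl5, at 0.13, and Scd1, at 0.88, and the sterol genes were Acat2, at -0.56, and Pmvk, at 0.29 on the log2 scale.

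**Figure D3:**
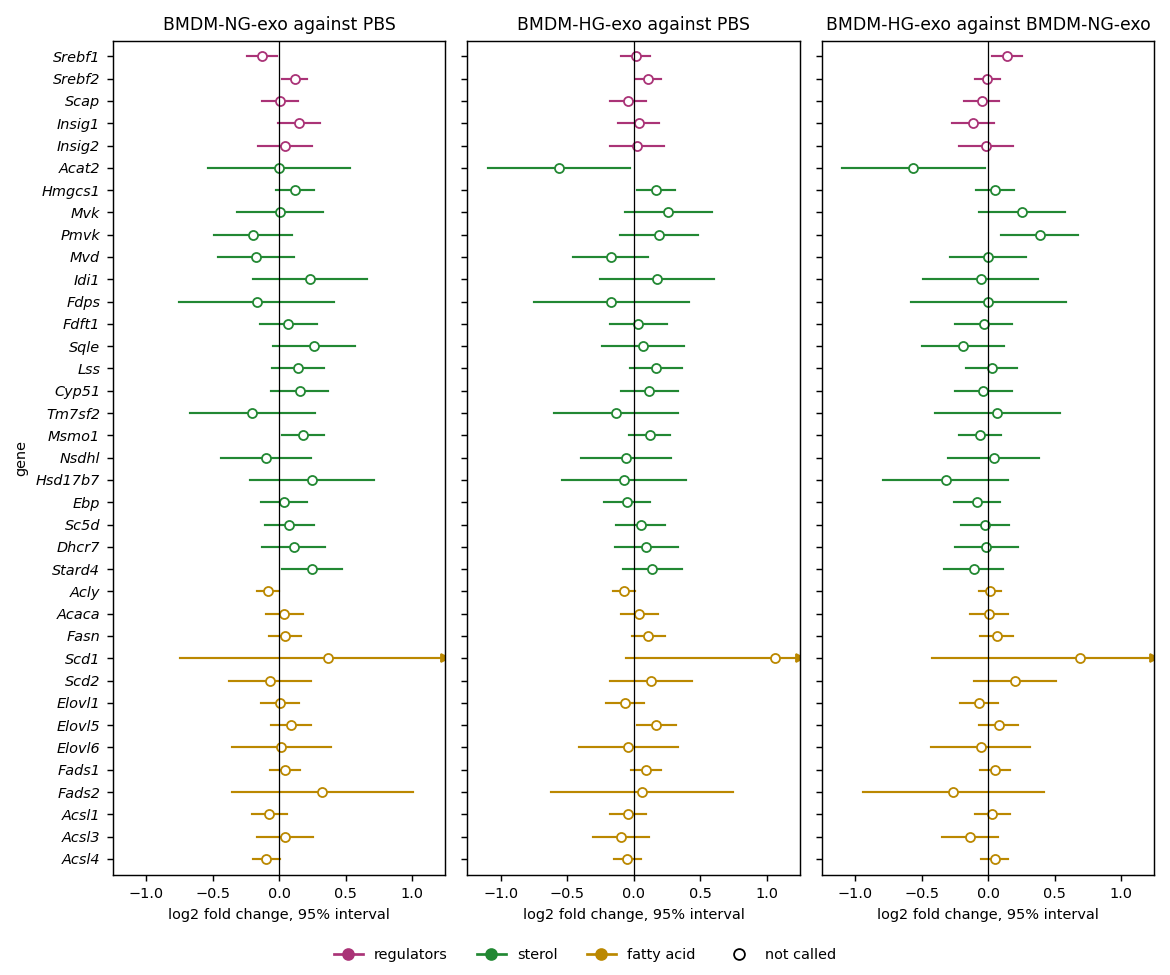
Log2 fold change of each gene with its 95% interval (limma, 12 libraries) for BMDM-NG-exo against PBS, BMDM-HG-exo against PBS and BMDM-HG-exo against BMDM-NG-exo; open points were not called and arrowheads mark intervals that run past the axis. None of the 37 genes is called in any panel, and Srebf2 lies at 0.12 and 0.11 in the panels against PBS.

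Genes outside the list did pass in the exosome comparisons. Of all genes tested, 3% passed against PBS in BMDM-NG-exo and 4.84% in BMDM-HG-exo. Of the 18 further fatty acid pathway genes tested, 2 rose against PBS in BMDM-NG-exo and 1 in BMDM-HG-exo, and none fell. Lpin1 rose in both groups, by 0.37 in BMDM-NG-exo and 0.26 in BMDM-HG-exo on the log2 scale. Gpam, the glycerol-3-phosphate acyltransferase gene of the mitochondrion, rose by 0.35 in BMDM-NG-exo. Of the 10 liver X receptor genes and targets, 1 fell in BMDM-NG-exo, while 2 fell and 1 rose in BMDM-HG-exo. Abca1 fell by 0.16 in BMDM-NG-exo and by 0.26 in BMDM-HG-exo on the log2 scale. In BMDM-HG-exo Pltp fell by 0.19 while the sterol acyltransferase gene Soat1 rose by 0.16. None of the genes of these 2 lists passed in BMDM-HG-exo against BMDM-NG-exo or against the combined controls. Over all genes tested only 0.0139% and 0.201% passed there.

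Across the 5 groups, the reference group of each set of libraries, normal glucose with its mannitol and PBS, could be set side by side. Set, medium and condition cannot be told apart in this pair. Normal glucose was compared with PBS in a fit of all 20 libraries, in which 7 of the 37 genes passed, beside 20.5% of the 14449 genes tested (limma). Lower in normal glucose were 3 of 5 regulators, 1 of 19 sterol genes and 2 of 13 fatty acid genes, and Acsl3 was higher, beside 11.7% lower and 8.73% higher among all genes tested. At an unadjusted p under 0.05 there were 10 of the 37, beside 31.7%. No regulator lay above 0, and the median log2 fold change of the regulators was -0.17, beside 0.01 for all genes tested. For 6 of the 37 genes the groups did not overlap, beside 19% of all genes tested.

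Srebf1 was at 1600 to 1740 normalized counts in normal glucose and at 2017 to 2062 in PBS, a log2 fold change of -0.28 (limma adjusted p = 0.000231). Srebf2 was at 2511 to 2742 and 2906 to 3060, a log2 fold change of -0.17 (limma adjusted p = 0.00533), and neither gene's groups overlapped. Scap had 1797, 1518, 1867 and 1748 normalized counts in normal glucose and 2053, 2045, 1745 and 2049 in PBS, and fell by 0.19 on the log2 scale (limma adjusted p = 0.0353). Here 1 PBS library overlapped the normal glucose libraries. Mvd had 248, 211, 123 and 205 normalized counts in normal glucose and 286, 268, 258 and 265 in PBS, without overlap, and its log2 fold change of -0.49 (limma adjusted p = 0.0218) was -0.28 and no longer passed without normal glucose 5, its lowest library. Acly fell by 0.20 (limma adjusted p = 0.000231) and Fasn by 0.24 (limma adjusted p = 0.00430) on the log2 scale, with Fasn at 1681 to 1975 normalized counts in normal glucose and at 2051 to 2510 in PBS. The 2 sterol genes with the smallest p-values were Mvd and the lanosterol demethylase gene Cyp51, with 423, 389, 359 and 391 normalized counts in normal glucose and 439, 414, 526 and 501 in PBS, whose log2 fold change of -0.26 did not pass (limma adjusted p = 0.0651).

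Acsl3 had 380, 454, 471 and 427 normalized counts in PBS, all below the 494 to 593 of normal glucose (log2 fold change 0.34, limma adjusted p = 0.0117). High glucose, at 349 to 426, thus lay nearer to PBS than normal glucose did, and Utp14b also differed, by a log2 fold change of 0.34 (limma adjusted p = 0.00936). High against normal glucose and normal glucose against PBS share the normal glucose libraries and are therefore not independent of each other. Srebf1, Srebf2 and Acly passed in all 20 fits with 1 library omitted, and only these 3 passed without PBS 1. Scap kept its call in 15 of the 20 fits. It lost the call without normal glucose 3 or 6 and without PBS 1, 2 or 4. Most of the 20 fits leave out a library of another group, which leaves the means of normal glucose and PBS as they are. Such fits say little about how far a call rests on single libraries. Under quantile normalization Srebf2 and Scap did not pass, nor did Mvd and Scap without a variance trend. High glucose lay between normal glucose and PBS in its mean for Srebf1 (1785 normalized counts), Srebf2 (2767), Scap (1928), Mvd (236), Acly (4637) and Fasn (2142). Among the further genes, Aacs, an acetoacetyl-CoA synthetase gene, fell by 0.29 on the log2 scale in normal glucose against PBS. Of the 18 further fatty acid pathway genes tested, 3 rose and 3 fell. Hacd4 and Lpin1 rose by 0.28 and 0.25, while Acsl5 fell, with means of 2826 normalized counts in normal glucose and 3171 in PBS. Of the 10 liver X receptor genes and targets, none rose and 3 fell: Nr1h2, Mylip and Abcg1, by 0.29, 0.19 and 0.10. Over all genes tested, 20.5% passed in this comparison.

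**Figure D4:**
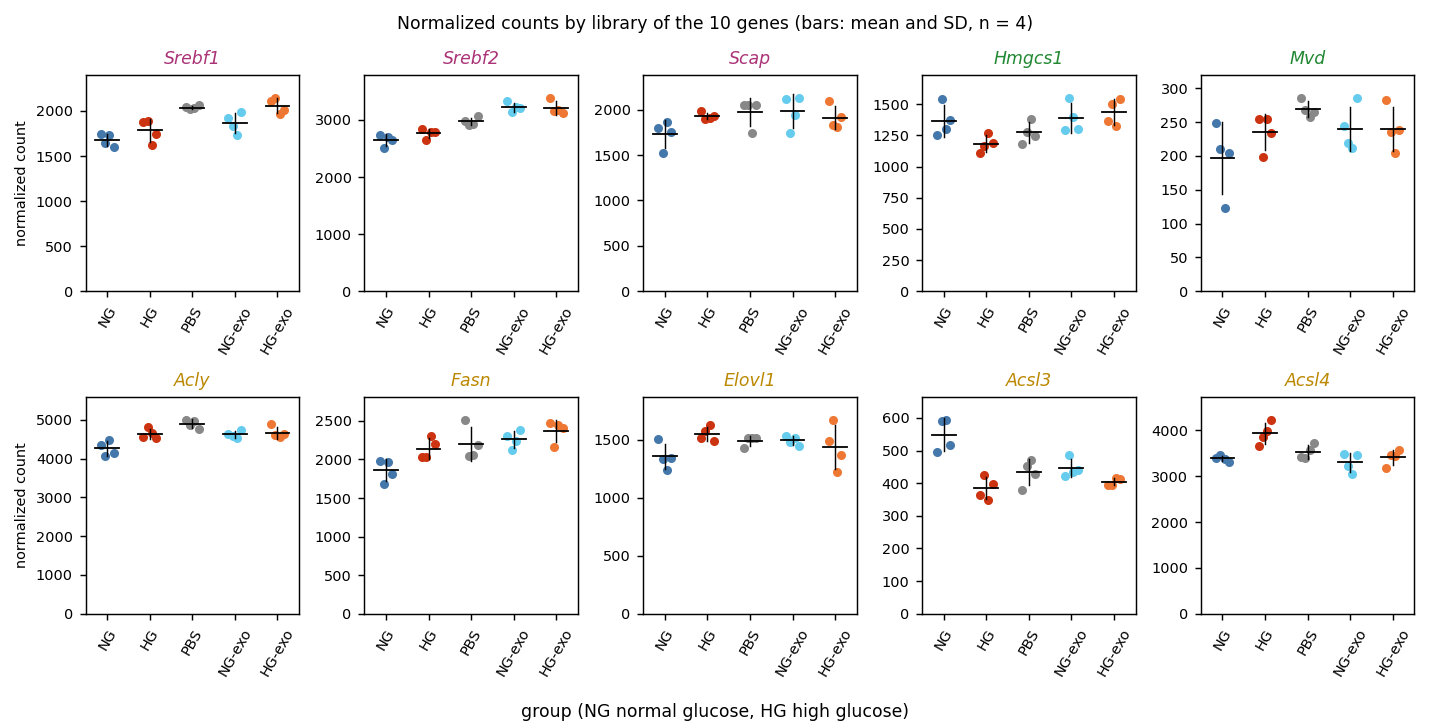
Normalized counts of 10 genes in each of the 20 libraries by group (points; bars show the mean and SD, n = 4; each axis starts at 0). Acsl3 is highest in normal glucose (494 to 593), and Srebf1 and Srebf2 are lower in normal glucose than in PBS. Acsl4 has its highest mean in high glucose (3658 to 4223), with PBS 4, at 3719, inside that range.

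The effect of high glucose on the cells and the effect of exosomes from high glucose cells were then compared with each other, as the difference of both log2 fold changes in the fit of 20 libraries. None of the 37 genes passed (limma), beside 4.74% of all genes tested, nor with edgeR or DESeq2, and 8 had an unadjusted p under 0.05, beside 17%. The smallest p in the sterol branch were those of Mvk, the mevalonate kinase gene (difference -0.59, 95% interval -1.04 to -0.14), and Hmgcs1 (-0.25, 95% interval -0.45 to -0.05). Mvk had 245, 213, 238 and 183 normalized counts in normal glucose, against 204, 142, 169 and 183 in high glucose, and 189, 273, 185 and 179 in BMDM-NG-exo, against 215, 277, 229 and 253 in BMDM-HG-exo. Both pairs overlapped, with high glucose on the lower side and BMDM-HG-exo on the higher side. In the fatty acid branch they were those of Elovl1 (0.27, 95% interval 0.07 to 0.46, limma adjusted p = 0.114) and Acsl3 (-0.37, 95% interval -0.66 to -0.09, limma adjusted p = 0.132). The effects on Acsl3 in the 2 sets of libraries, -0.51 and -0.14, are thus not shown to differ. Elovl1 passed without normal glucose 1 and without BMDM-HG-exo 2.

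The genes of a branch did not move together from library to library. After the group means were removed, Pearson's r over the 20 libraries averaged 0.03 over the 171 pairs of sterol genes and -0.03 over the 78 pairs of fatty acid genes, beside 0.00 over all gene pairs. Single pairs ran from -0.62 to 0.64 among the sterol genes. The points share their libraries and depth, and the values are given as a description. Among the pairs, Srebf2 and Scap had the highest r (0.69), followed by Nsdhl and Sc5d (0.64). The lowest r was further from 0, at -0.76 between a regulator and a sterol gene. These are the extremes of many pairs over 20 libraries and were not tested. The genes outside the list whose pattern was closest to the mean of the sterol genes were Ifitm6 (r = 0.79), Ubxn8, Fbxo11, Fam122b, Fance, Pdcd2, Mettl22, Mrps14, Elk4 and Itgb1bp1. Closest to the mean of the fatty acid genes were Cipc (r = 0.89), Cops7a, Mgat4b, Slc6a8, Tnnt3, Heatr5a, Asph, Sh3tc1, Cgnl1 and Deaf1.

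**Figure D5:**
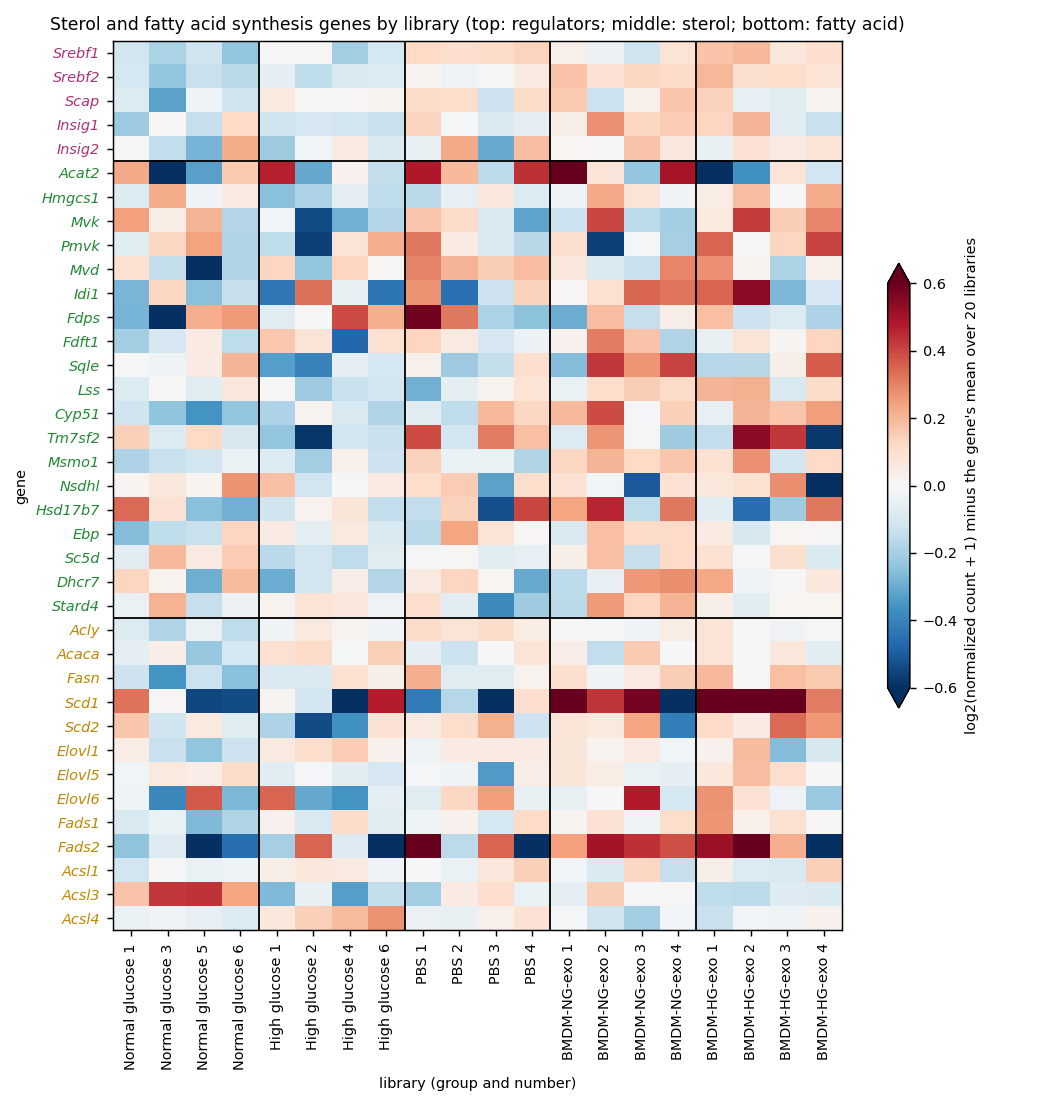
Heat map of the 37 genes (rows) in the 20 libraries (columns), coloured by log2 of the normalized count plus 1 minus the mean of the gene over all libraries, with the colour scale ending at 0.6 on either side. Acsl3 stands out as higher in the 4 normal glucose libraries, and the widest swings are those of genes with few reads such as Scd1, Fads2 and Acat2.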

How the data were processed

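RNA-seq was analysed in 20 libraries of mouse BMDM in 5 groups of 4. Per the study's methods and the submitters' processing notes, the authors aligned reads with STAR 2.5.3a to GRCm38, counted them per gene with FeatureCounts 2.0.1 and normalized them with DESeq2 1.20.0. The annotation used for counting is not given in the sources used here. The deposited values are a signal, namely gene counts divided by a DESeq2 size factor, and whole reads could be recovered from them, with 34016445 to 56310712 reads per library.

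From these values, log2 of the normalized count plus 1 was tested with limma 3.58.1 (R 4.3.3) with a variance trend, for genes whose mean normalized count was 10 or more, and p-values were adjusted by Benjamini-Hochberg across the tested genes. Calls needed an adjusted p under 0.05 and, in the exosome comparisons, a log2 fold change of 0.15 or more in either direction. The glucose comparison used 8 libraries, the exosome comparisons 12, and the comparisons across both sets 20. By rule, values are given for Srebf1, Srebf2 and Insig1, for each gene called in any comparison, for the 2 genes of each branch with the smallest p in a comparison, and for up to 3 called genes of each further list. Other genes named were chosen after their values were seen. The members and the gene lists were chosen with earlier results of these data known. Alternatives were other pseudocounts, filters and scalings, edgeR 4.0.16 and DESeq2 1.42.0 on the recovered reads, a block and leaving out each library. The fits were tested on simulated data. Exosome libraries share dates in the labels, which pair them; correlations of their deviations from the group means averaged 0.012 over 12 pairs with a shared date and -0.00397 over 36 others. Promoter sequences came from RefSeq on GRCm38.p6. Levels per kb used the merged exon length in GENCODE M21. Some further sterol pathway genes are not reported here.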

Additional observations from a re-analysis of the deposited data

Results flagged for a closer look

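In 6 of 185 sets of 4 libraries (3.24%), 1 library stood far from the other 3, measured by its gap to the nearest of them over the whole range, with Dixon's 95% critical value as the limit; chance alone gives about 1 such set in 20. Scap was at 1745 normalized counts in PBS 3, with the others between 2045 and 2053. Nsdhl was at 209 in the same library, with the others between 281 and 290. Elovl1 was at 1430 in PBS 1, with the others at 1512. Mvk was at 273 in BMDM-NG-exo 2, with the others between 179 and 189. Elovl6 was at 195 in BMDM-NG-exo 3, with the others between 130 and 140. Fdft1 was at 328 in High glucose 4, with the others between 480 and 510.

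The effect of high glucose was also tested against the effect of BMDM-HG-exo against BMDM-NG-exo in the fit of 20 libraries (limma with Benjamini-Hochberg adjustment). It differed for 1 of the 10 liver X receptor genes and targets and for 1 of the 18 further fatty acid pathway genes tested. Over all genes it differed for 685 of 14449 (4.74%), so that counts this small do not set these lists apart. The difference of the log2 fold changes was -0.21 for Pltp (adjusted p = 0.0155) and -0.23 for Hacd4 (adjusted p = 0.0214).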

How the results depend on the processing

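For high against normal glucose, the count of genes called among the 37 was 5, beside 13.3% of all genes tested. It became 3 under quantile normalization (Acsl3, Acsl4 and Hmgcs1), beside 11.5%, and 1 without a variance trend (Acsl3), beside 4.53%. At an unadjusted p it became 12, beside 25.4%, and it ranged from 3 to 7 when 1 library was left out. At an unadjusted p with the limit on the fold kept, the count of 0 became 2 for BMDM-HG-exo against BMDM-NG-exo, 2 for BMDM-NG-exo against PBS, 3 for BMDM-HG-exo against PBS and 2 for BMDM-HG-exo against the combined controls. The share of all genes under that rule is not given here, so that these counts have no background beside them. Without the limit on the fold, 3, 5, 4 and 2 of the 37 genes were found, beside 6.54%, 13.5%, 16.9% and 10.5% of all genes tested. For normal glucose against PBS the count was 7, beside 20.5% of all genes tested. It became 5 under quantile normalization, beside 17.6%, and 5 without a variance trend, beside 16.4%, and it ranged from 3 to 9 when 1 library was left out. For the difference between both effects the count of 0 became 8 at an unadjusted p, beside 17%, and ranged from 0 to 1 when 1 library was left out. When 1 library was left out, 86 of the 259 log2 fold changes of the 37 genes over all comparisons took both signs, and none of these 86 was called in any such fit. Among the genes described by rule, Insig1 ranged from -0.11 to 0.00065 for high against normal glucose, Insig1 from -0.018 to 0.093 and Srebf1 from -0.0058 to 0.036 for BMDM-HG-exo against PBS, and Insig1 from -0.11 to 0.0011 for normal glucose against PBS. The cause of these changes was not tested.

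With the library number as a replicate block, 1 gene (Acsl4) passed in the glucose comparison, beside 5.46% of all genes tested. The groups share only 2 numbers. In the exosome comparisons the date block changed no call among the genes of the list. Over all genes tested, calls did change with this block. For BMDM-HG-exo against BMDM-NG-exo, 0.0139% passed without the date block and 0.153% with it. Against PBS the share went from 3% to 3.5% in BMDM-NG-exo and from 4.84% to 5.62% in BMDM-HG-exo. For BMDM-HG-exo against the combined controls the share went from 0.201% to 0.16%. No paired analysis was possible because normal glucose and PBS share no label that ties their libraries, which holds for both fits of 20 libraries. Genes with few reads, such as Scd1 with 3 to 35 reads in a library, are limited by depth.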
